A study of Mus musculus with 32 samples.

Results

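The libraries described here are the 4 immunoprecipitates (IPs) made at baseline from 2 bacTRAP mouse lines, 2 from the Gprin3 line and 2 from the Colgalt2 line. They were chosen by their titles, IPs only, from the 32 libraries of the series. In translating ribosome affinity purification (TRAP), a transgene on a bacterial artificial chromosome expresses ribosomal protein L10a fused to EGFP under the control of a driver gene. Antibodies to EGFP then pull down tagged ribosomes with the RNA bound to them, and input is RNA of the same kind of tissue before the pull-down. Both baseline groups had the genotype Wildtype, carried the EGFP-L10a transgene and came from primary motor cortex (M1) of adults aged 8 to 17 weeks. The Gprin3 line (ES152) is labelled lower layer 5b pyramidal cells and the Colgalt2 line (DU9) upper layer 5b pyramidal cells. The study asked how these populations of layer 5b neurons differ. Each population is represented by 1 transgenic line and 1 driver gene, so an effect of the line and a difference between the populations cannot be told apart.

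Other groups served as context. The baseline inputs numbered 3 for the Gprin3 line and 2 for the Colgalt2 line. A second set held SOD- wild-type (WT) littermates from crosses of each bacTRAP line with mice carrying SOD1*G93A, a mutant human transgene used to model amyotrophic lateral sclerosis (ALS). It gave 2 Gprin3 WT IPs from M1 and 3 Colgalt2 WT IPs, whose characteristics and protocol give whole cortex while their source name reads M1. In that set the line and the dissected tissue cannot be told apart. It shares no sample with the baseline set. The age given for its animals and for the baseline inputs is the same, 8 to 17 weeks. Whether replicates came from separate animals is not given in the labels, and p values then cover only the spread between these samples.

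Layer 5b of motor cortex holds the large pyramidal neurons that project out of the cortex to the brainstem and spinal cord, the extratelencephalic neurons, intermixed with intratelencephalic neurons, which project within the cortex and to the striatum. Their fate is set in development by transcription factors such as Fezf2 and Bcl11b. Layer 5 also holds near-projecting neurons and GABAergic interneurons, which use the transmitter GABA and fall into classes marked by somatostatin, parvalbumin or the serotonin receptor gene Htr3a. A TRAP IP is enriched in the driver's cells but is not pure, since RNA of other cells can be carried along.

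The 4 IPs held 17522514 and 16929503 counts (Gprin3 IP 1 and 2) and 10865185 and 19860197 counts (Colgalt2 IP 1 and 2). Levels are in CPM, counts scaled to a common library total, and means are given ± SD. Log2 fold changes are Gprin3 minus Colgalt2, ± SE, so a positive value is higher in the Gprin3 IPs. Adjusted p values (edgeR, two-sided quasi-likelihood test; Benjamini-Hochberg over every gene tested) have a threshold of 0.05, and "called" means past it. Across the 13604 genes tested, the rank correlation of levels was 0.972 between the Gprin3 IPs, 0.96 between the Colgalt2 IPs and 0.934 to 0.938 between IPs of different lines. Gprin3 IP 2 stood apart at Ttr, the transthyretin gene of the choroid plexus, with 138 CPM against 2.68 CPM in Gprin3 IP 1 and 0.184 and 0 CPM in the Colgalt2 IPs (adjusted p = 0.292, or 2.63e-08 without Gprin3 IP 1). The inputs of the Gprin3 line held 0.82, 1390 and 0.841 CPM of Ttr, so 1 of the 3 stood apart as well.

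The driver genes were examined first. Colgalt2, which encodes a collagen galactosyltransferase, was at 5.19 and 5.43 CPM in the Gprin3 IPs and at 79.4 and 97.1 CPM in the Colgalt2 IPs. The lines did not overlap, and the log2 fold change was -4.06 ± 0.34 (adjusted p = 6.67e-05). The inputs, which are whole tissue, differed as well: 4.2 ± 0.675 CPM in 3 inputs of the Gprin3 line and 54.9 ± 2.92 CPM in 2 inputs of the Colgalt2 line. With each line's own inputs taken into account, the difference in enrichment of Colgalt2 was -0.34 (adjusted p = 0.567). Gprin3, a G protein regulated inducer of neurite outgrowth gene, was at 49.7 and 38.9 CPM in the Gprin3 IPs and at 17.5 and 16.5 CPM in the Colgalt2 IPs. Inputs held 12.9 ± 1.82 CPM (n = 3) and 15.2 CPM (n = 2, SD 0.0521) of Gprin3. Gprin3 had a log2 fold change of 1.39 ± 0.33 (adjusted p = 0.0244), a call lost without Gprin3 IP 1 (adjusted p = 0.229) and without Gprin3 IP 2 (adjusted p = 0.069). In the WT set Gprin3 was at 37.2 and 23.7 CPM in the Gprin3 IPs and at 23.7, 28.4 and 37.1 CPM in the Colgalt2 IPs, so the lines overlapped (adjusted p = 0.988). Rpl10a, the gene of the ribosomal protein that carries the tag, was at 26.4 and 34.3 against 17.1 and 18.7 CPM at baseline (log2 fold change 0.75, adjusted p = 0.21). Whether counts of Rpl10a include the transgene is not stated in the sources used here.

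The neighbours of the drivers within 400 kb were then compared. Tsen15, a subunit gene of the tRNA splicing endonuclease, lies on chromosome 1 from 152370735 to 152386682, with 13122 bases between its facing end and that of Colgalt2 (chromosome 1, 152399805 to 152510695; RefSeq, GRCm38.p6). It was at 16.2 and 20.1 CPM in the Gprin3 IPs and at 160 and 169 CPM in the Colgalt2 IPs (log2 fold change -3.19 ± 0.29, adjusted p = 0.000115). Tsen15 differed as much in whole tissue: the inputs held 18.5 ± 1.98 CPM (n = 3) and 170 ± 4.43 CPM (n = 2). With the inputs taken into account its difference was 0.04 (adjusted p = 0.949), so its sign turned and the call was lost. Tsen15 was, in the WT set, at 14.9 and 11.9 against 102, 82.5 and 130 CPM (log2 fold change -2.99 ± 0.28, adjusted p = 0.000212). Rgl1, a guanine nucleotide exchange factor gene 6.1 kb from the other end of Colgalt2, was at 132 and 102 against 176 and 190 CPM at baseline and was not called (adjusted p = 0.168). It was called in the WT set, at 151 and 149 against 298, 388 and 487 CPM (log2 fold change -1.41, adjusted p = 0.00501). Of 6 tested neighbours of Colgalt2, Tsen15 was the 1 called at baseline, and the other 5 had log2 fold changes from -1.26 to 0.51. The 2 tested neighbours of Gprin3 (chromosome 6, 59344500 to 59426306) were not called, Tigd2, a gene derived from a transposable element, at 0.97 (adjusted p = 0.0996) and Fam13a at -0.18. Reads from overlapping genes cannot be told apart where counting did not use strand, which the sources used here do not state.

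**Figure D1:**
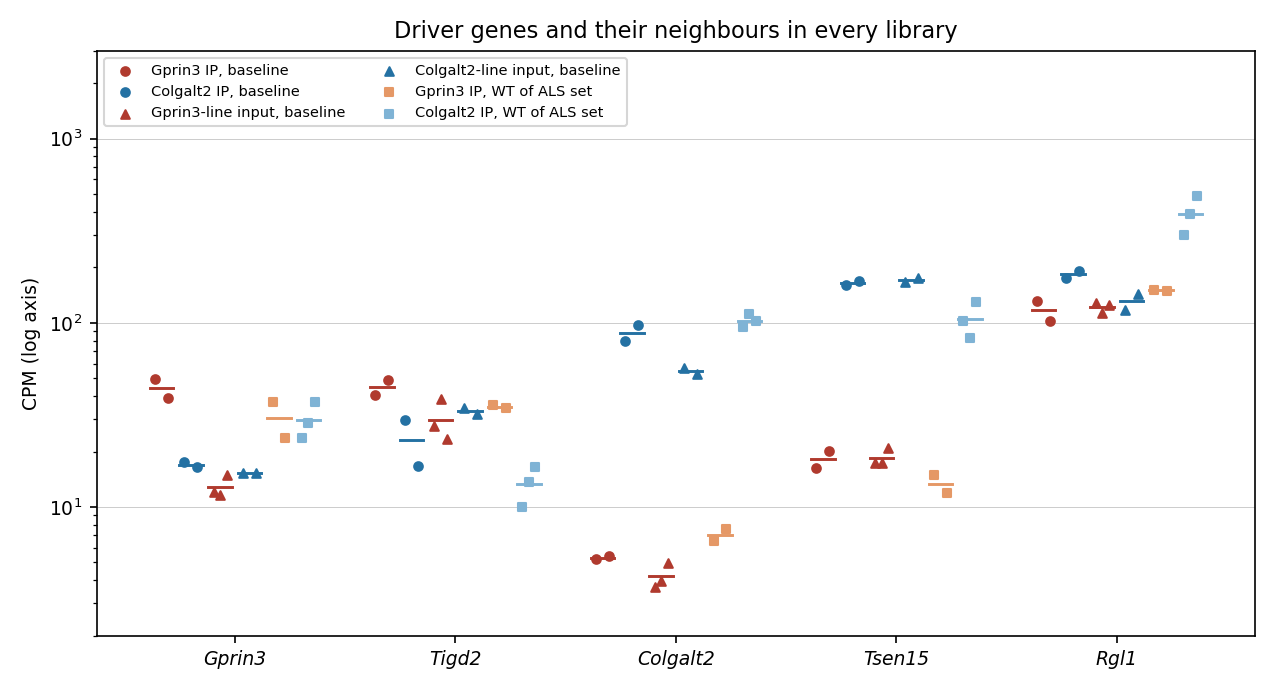
CPM of Gprin3, Colgalt2 and 3 of their neighbours in each library of 6 groups (log axis); points are libraries and horizontal lines group means. Tsen15 sits at 160 and 169 CPM in the Colgalt2 IPs and at 170 CPM on average in the Colgalt2-line inputs, against 16.2 and 20.1 CPM in the Gprin3 IPs.

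The promoter sequences of genes that carry these contrasts are shown for reference: the Gprin3 driver, and Tsen15 beside the Colgalt2 driver. Each is the 250 bases before the start of the gene in RefSeq (GRCm38.p6), 5′ to 3′ on the gene's strand. Capitals mark GGGCGG (or its reverse strand, CCGCCC), the core of a GC box.
Gprin3, chr6:59426307-59426556, minus strand: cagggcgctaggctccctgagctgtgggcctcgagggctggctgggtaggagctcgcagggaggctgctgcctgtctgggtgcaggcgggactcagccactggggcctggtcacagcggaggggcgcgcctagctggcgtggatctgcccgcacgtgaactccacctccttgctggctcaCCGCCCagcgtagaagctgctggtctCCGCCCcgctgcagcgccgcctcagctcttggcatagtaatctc
Tsen15, chr1:152386683-152386932, minus strand: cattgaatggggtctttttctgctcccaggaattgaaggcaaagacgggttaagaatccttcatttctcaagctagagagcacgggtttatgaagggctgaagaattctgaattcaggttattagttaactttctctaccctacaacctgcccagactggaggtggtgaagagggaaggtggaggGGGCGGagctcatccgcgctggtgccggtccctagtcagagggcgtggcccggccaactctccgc
The first base of the GC box was 65 bases before the start in Tsen15, and the first bases of the 2 copies in Gprin3 were 70 and 44 bases before it. Of 32851 promoter windows of 250 bases, 32.7% held GGGCGG on either strand. A match describes the letters of the window and is not a measured site.

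Across all genes, 302 were higher in the Gprin3 IPs (2.22% of those tested) and 605 were lower (4.45%), 907 in all (6.67%). The median log2 fold change of all genes tested was -0.017, and 53.3% of them had no overlap between the lines. At an unadjusted p under 0.05 there were 3089 genes. The number of calls changed when 1 library was left out. The 1 library that remained in a line was then assumed to vary like the other line. Counts given below for a list in such fits are to be read beside those over all genes. Leaving out Gprin3 IP 1 left 135 calls and leaving out Gprin3 IP 2 left 247, while leaving out Colgalt2 IP 1 gave 1349 and Colgalt2 IP 2 gave 1711. Of the 907 genes, 81 were called with each library left out. The genes described below include 35 of these 81, among them Sst, Calb1, Flt1, Bsn and Kmt2a.

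Fold changes followed the length of the transcript. Genes were ordered by their longest transcript and cut into 4 bins of equal size. In the bin of the shortest (216 to 2339 bases), the median log2 fold change was 0.407, with 156 genes higher and 27 lower in the Gprin3 IPs. In the bin of the longest (4997 to 123179 bases), it was -0.434, with 28 higher and 425 lower. The bins between them had medians of 0.0928 and -0.108. Over the 13118 genes with a length, the rank correlation of fold change and length was -0.392 at baseline. In the WT set it was -0.0576, over the 14139 genes tested there with a length. Both values are descriptions across genes that share the same libraries. With the length trend taken out, 315 genes were called (2.4%), 133 higher (1.01%) and 182 lower (1.39%), and 270 of these were among the 907. With each line's inputs taken into account, 1307 of 15045 genes were called (8.69%), 486 higher (3.23%) and 821 lower (5.46%), 816 of them among the 907. The part of length in a gene's fold change was not tested, so the lists below that are called short or long in transcript are given with the length trend taken out as well.

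**Figure D2:**
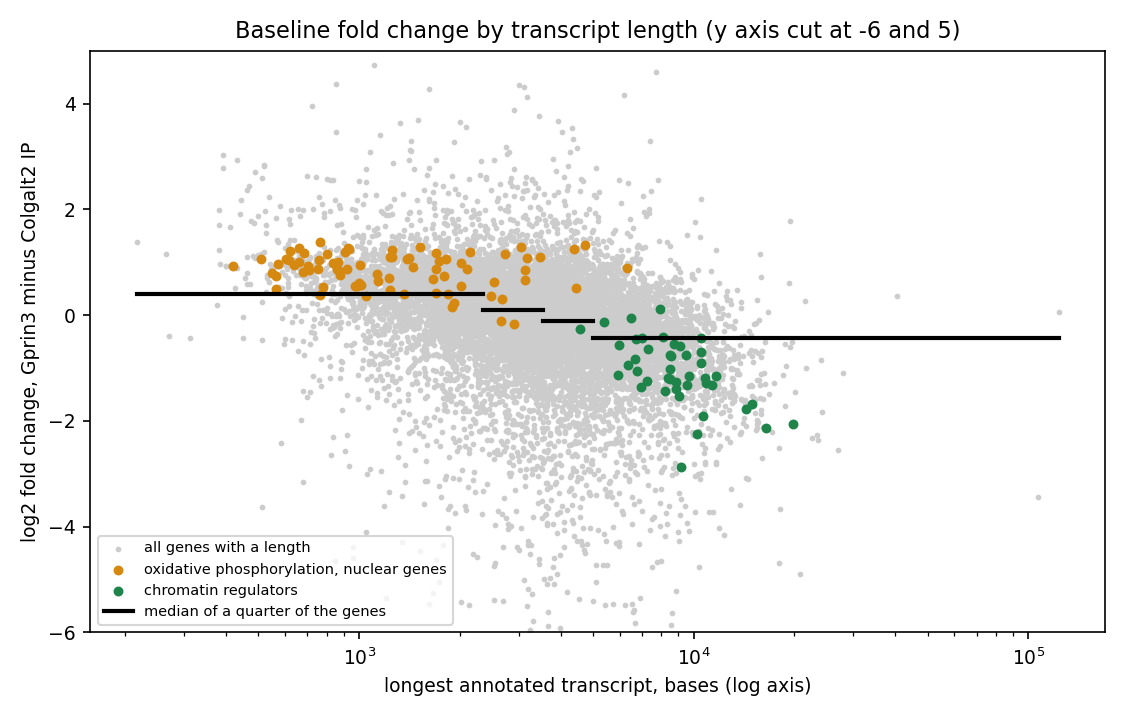
Baseline log2 fold change (Gprin3 minus Colgalt2) of each tested gene against the length of its longest transcript in bases (log axis); orange points are nuclear genes of oxidative phosphorylation, green points chromatin regulators, and black marks the medians of 4 length bins. The medians run from 0.407 in the shortest bin to -0.434 in the longest; the vertical axis ends at -6 and 5.

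Markers of layer 5 extratelencephalic neurons were summed above the inputs in both lines, and most members were not called between the lines. Summed over the 24 marker genes, they reached 3370 and 3380 CPM in the Gprin3 IPs and 2920 and 3970 CPM in the Colgalt2 IPs, against 1420 to 1440 CPM in the Gprin3-line inputs and 1480 to 1530 CPM in the Colgalt2-line inputs. Of the 24, 5 were higher in the Gprin3 IPs and 1 was lower (median 0.104), while over all genes tested 2.22% were higher and 4.45% lower. The higher members of the list include the driver Gprin3, the lower one is the driver Colgalt2, and the sums hold both. In the WT set 3 were higher and 5 lower, with a median of -0.26. Fezf2 was at 97.6 and 137 CPM in the Gprin3 IPs and at 105 and 303 CPM in the Colgalt2 IPs, so the lines overlapped (log2 fold change -0.84, adjusted p = 0.235). Leaving out Colgalt2 IP 2 turned its sign to 0.24, and leaving out Colgalt2 IP 1 gave -1.45. In the WT set the lines did not overlap at Fezf2. It was there at 95.3 and 78.5 against 225, 443 and 446 CPM (-2.13 ± 0.32, adjusted p = 0.00231). Bcl11b, at 133 and 132 against 145 and 83.9 CPM, was not called (0.23 ± 0.28, adjusted p = 0.678, with the sign turned to -0.04 without Colgalt2 IP 2), nor was Crym, a thyroid hormone binding protein gene, at 89.8 and 122 against 74.9 and 89.8 CPM (0.35 ± 0.28, adjusted p = 0.494).

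Among the called members, Slco2a1, a prostaglandin transporter gene, was at 20.9 and 18.4 CPM in the Gprin3 IPs and at 4.51 and 5.54 CPM in the Colgalt2 IPs. The 4 libraries fell into separate ranges, and inputs of both lines were lower, at 2.67 and 1.63 CPM. The log2 fold change of Slco2a1 was 1.95 ± 0.44 (adjusted p = 0.0201), and in the WT set 2.43 (adjusted p = 0.00478). With the inputs taken into account the Slco2a1 difference was 1.24 (adjusted p = 0.152). Diaph3, a formin gene of actin assembly, was at 12.1 and 18.4 against 3.68 and 2.37 CPM (2.35 ± 0.52, adjusted p = 0.0176), and at 2.12 in the WT set (adjusted p = 0.00621). With 1 library left out, log2 fold changes ran from 1.76 to 2.21 for Slco2a1 and from 2.06 to 2.6 for Diaph3. Neither gene was called without Gprin3 IP 1 or without Gprin3 IP 2, where calls over all genes fell too. The list, without Gprin3 IP 1 and likewise without Gprin3 IP 2, had 0 members higher and 1 lower.

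Markers of the other pyramidal classes moved in both directions. Of 13 intratelencephalic markers of layer 5, 1 was higher and 3 were lower, with a median of -0.557. The lower count was 1 without Gprin3 IP 1 and 1 without Gprin3 IP 2. Etv1, a transcription factor gene of layer 5, was at 75.4 and 80.2 CPM in the Gprin3 IPs and at 231 and 462 CPM in the Colgalt2 IPs. The lower Colgalt2 IP was still well above both Gprin3 IPs (-2.18 ± 0.34, adjusted p = 0.00269, or 0.0588 without Gprin3 IP 1), and the WT set gave -1.53 (adjusted p = 0.00324). Deptor, an inhibitor gene of the mTOR kinase, was at 34.2 and 22.3 against 74.6 and 126 CPM (-1.84 ± 0.35, adjusted p = 0.00917), with adjusted p values of 0.125 without Gprin3 IP 2 and 0.0771 with the length trend taken out. In bulk RNA, fewer cells of a type and less RNA per cell cannot be told apart, here and in all marker lists below.

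Of 8 near-projecting markers, 2 were higher and 1 was lower, with a median of 1.02. Without Gprin3 IP 1, without Gprin3 IP 2 and with the length trend taken out, 1 was higher and 0 lower, and the median was -0.75 without Gprin3 IP 2. Lypd1, which encodes a modulator of nicotinic acetylcholine receptors, was at 118 and 125 CPM in the Gprin3 IPs and at 41.3 and 28 CPM in the Colgalt2 IPs. Both Gprin3 IPs were above and both Colgalt2 IPs below the inputs, which averaged 53.8 and 48.2 CPM. Its log2 fold change was 1.82 ± 0.28 (adjusted p = 0.00269), against 0.06 in the WT set (adjusted p = 0.913). Tshz2, a zinc finger transcription factor gene, went the other way, at 5.54 and 11.1 against 25.2 and 24.2 CPM (-1.58 ± 0.42, adjusted p = 0.0399), and was lower in the WT set too (-1.42, adjusted p = 0.00258). Its baseline call was lost without Gprin3 IP 1 (adjusted p = 0.285), without Gprin3 IP 2 (adjusted p = 0.0602) and with the length trend taken out (adjusted p = 0.0987). Of 12 layer 6 markers, 9 had a fold below 0 (median -0.521), and Syt6, a synaptotagmin gene, was the 1 called. Syt6 was at 71.7 and 52.3 against 22.7 and 18.8 CPM (1.59 ± 0.32, adjusted p = 0.0113), a call lost without Gprin3 IP 1. Its fold ran from 1.31 to 1.83 with 1 library left out, and was 1.49 in the WT set (adjusted p = 0.00331). Of 14 layer 6 markers tested in the WT set, 1 was higher and 4 were lower, with a median of -0.976. Of 16 markers of layers 2 to 4, 1 was higher and 2 were lower, or 1 and 0 without either Gprin3 IP and with the length trend taken out, and 1 and 4 without Colgalt2 IP 2: the higher was Calb1, and one of the lower was Cux1, an upper layer homeobox gene, at 56.4 and 55.1 against 201 and 130 CPM. Cux1 gave -1.56 ± 0.28 (adjusted p = 0.00625), lost without Gprin3 IP 1 (adjusted p = 0.103), without Gprin3 IP 2 (adjusted p = 0.11) and with the length trend taken out (adjusted p = 0.334), and 0 in the WT set.

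The called interneuron markers were higher in the Gprin3 IPs with 1 exception, and Sst had the largest fold among the markers described. Of 34 tested, 13 were higher and 1 was lower, 28 had a fold above 0, and the median was 0.963. Their summed level was 3830 and 3900 CPM in the Gprin3 IPs, 2140 and 2570 CPM in the Colgalt2 IPs, and 2580 to 2770 and 2650 to 2850 CPM in the inputs of the 2 lines. In the WT set 21 were higher and 1 lower (6.9% and 6.1% of all genes tested there), with a median of 1.35. With the length trend taken out, 8 were higher and 0 lower at baseline. Leaving out Gprin3 IP 1, or Gprin3 IP 2, left 7 higher and 0 lower.

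Sst, which encodes the inhibitory peptide somatostatin, was at 643 and 680 CPM in the Gprin3 IPs and at 33.2 and 51.3 CPM in the Colgalt2 IPs. The Gprin3 IPs were far above and the Colgalt2 IPs below the inputs, which averaged 99.3 and 94.5 CPM. For Sst the log2 fold change was 3.95 ± 0.31 (adjusted p = 6.49e-05), and in the WT set, at 515 and 465 against 51.8, 45.5 and 75 CPM, it was 3.07 ± 0.24 (adjusted p = 9.65e-05). Pvalb, the calcium buffer parvalbumin, was at 162 and 214 against 58.8 and 45 CPM (1.86 ± 0.27, adjusted p = 0.00208). The WT set gave 196 and 230 against 17, 18.8 and 19.2 CPM (3.52 ± 0.2, adjusted p = 9.1e-06), and the contrasts of the 2 sets differed by -1.59 (adjusted p = 0.012). Htr3a, the ionotropic serotonin receptor gene, was at 25.3 and 16.7 against 2.67 and 1.06 CPM, with no overlap (3.56 ± 0.55, adjusted p = 0.00271). Dlx5, a homeobox gene of the interneuron lineage, was at 19.9 and 20.5 against 2.21 and 2.37 CPM (3.13 ± 0.48, adjusted p = 0.00249). Npas1, a transcription factor gene of interneurons, was at 21 and 19 against 3.31 and 1.31 CPM (3.17 ± 0.53, adjusted p = 0.00418). These 5 genes were called with each library left out and with the length trend taken out. In the WT set Npas1 was called too (2.7, adjusted p = 0.0115). Htr3a (1.37, adjusted p = 0.0785) and Dlx5 (1.06, adjusted p = 0.21) were not called there, and the lines overlapped at Dlx5.

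The genes of GABA synthesis were not called at baseline. Gad1 was at 129 and 107 CPM in the Gprin3 IPs and at 212 and 162 CPM in the Colgalt2 IPs. The Colgalt2 IPs were the higher, but the difference was not called (log2 fold change -0.65 ± 0.26, adjusted p = 0.152) unless Colgalt2 IP 2 was left out (adjusted p = 0.0317). The WT set had Gad1 higher in the Gprin3 IPs, at 201 and 219 against 134, 58.2 and 60.5 CPM (1.32 ± 0.29, adjusted p = 0.0154), and the contrasts of the 2 sets differed (adjusted p = 0.0205). Gad2 was higher in both Gprin3 IPs, at 561 and 504 against 413 and 268 CPM, and was not called (0.66 ± 0.26, adjusted p = 0.146, or 0.00708 without Colgalt2 IP 1). The 1 marker called lower was Nos1, the neuronal nitric oxide synthase gene, at 15.3 and 17.9 against 49.8 and 37.3 CPM (-1.38 ± 0.33, adjusted p = 0.0239). That call was lost without Gprin3 IP 1 (adjusted p = 0.195), without Gprin3 IP 2 (adjusted p = 0.135) and with the length trend taken out (adjusted p = 0.366). Slc17a7, the vesicular glutamate transporter gene of pyramidal neurons, was at 730 and 642 against 660 and 415 CPM (0.37 ± 0.27, adjusted p = 0.44, or 0.0469 without Colgalt2 IP 1).

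**Figure D3:**
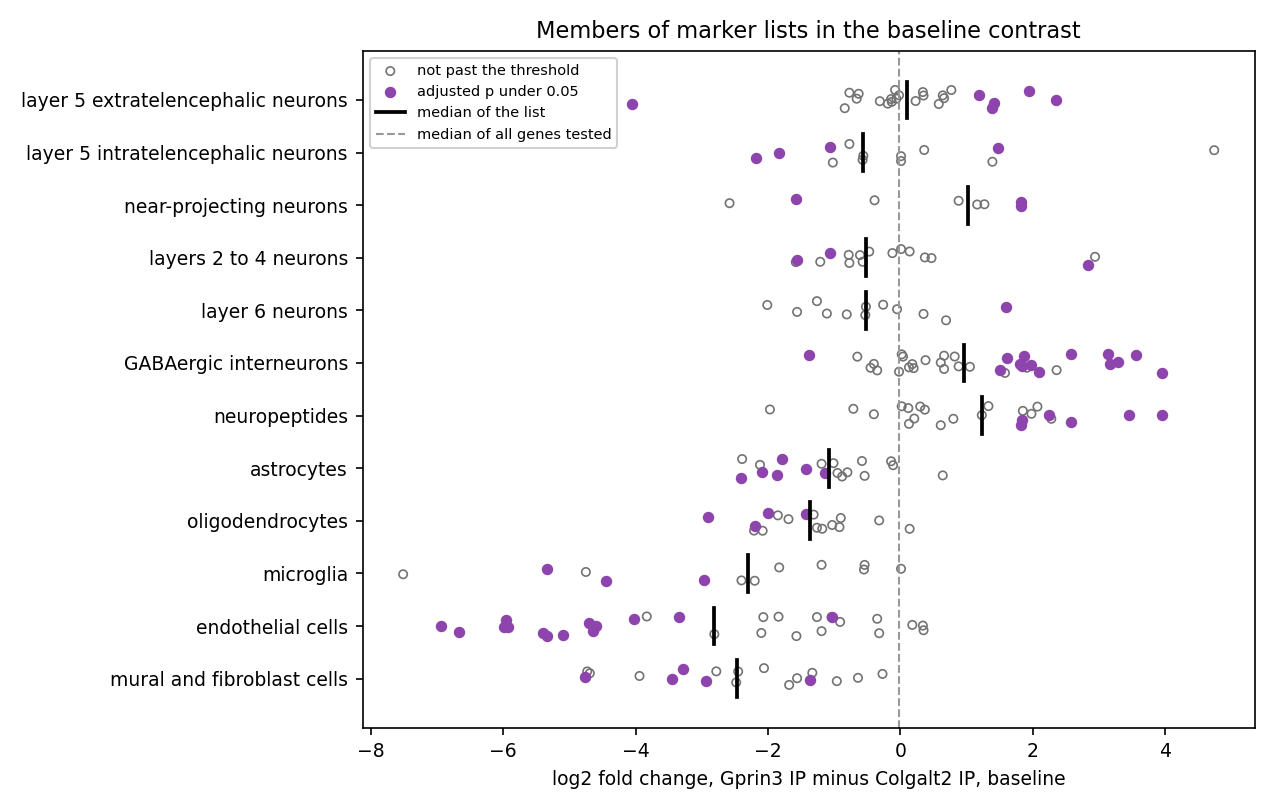
Baseline log2 fold changes (Gprin3 minus Colgalt2) of the tested members of 12 lists; filled points passed an adjusted p of 0.05, black bars are list medians and the dashed line is the median of all genes tested (-0.017). Interneuron markers sit mostly above the line (median 0.963), and endothelial (median -2.81) and astrocyte (median -1.07) markers mostly below it.

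The called genes of the neuropeptide list, which also holds other genes such as Igf1 and Nxph1, were higher too. Of 23 tested, 6 were higher and 0 lower, with a median of 1.23, and 4 were higher with the length trend taken out. Leaving out Gprin3 IP 1 or Gprin3 IP 2 left 4 higher, and leaving out Colgalt2 IP 1 gave 8 higher and 2 lower. Sst is also in the interneuron list. Igf1 (2.25, adjusted p = 0.0229) is also in the growth factor list, and Nxph1 (1.82, adjusted p = 0.044) in the near-projecting list. Of 27 genes of the neuropeptide list tested in the WT set, 8 were higher and 5 lower, with a median of 0.315. Pdyn, the prodynorphin gene of opioid peptides, was at 35.3 and 52 CPM in the Gprin3 IPs and at 7.36 and 7.2 CPM in the Colgalt2 IPs (2.57 ± 0.37, adjusted p = 0.00185). Both Colgalt2 IPs were close to the inputs (10.5 and 8.85 CPM), and the WT set was alike, at 58 and 57.5 against 11.3, 9.12 and 11.2 CPM (2.44 ± 0.23, adjusted p = 0.000233). Tac2, a tachykinin gene (neurokinin B), was at 21.3 and 18.8 against 2.76 and 1.06 CPM (3.46 ± 0.55, adjusted p = 0.00309), with 1.83 in the WT set (adjusted p = 0.0153). Of 28 neuropeptide receptor genes none was called. Of 29 receptor genes for monoamines and acetylcholine, 3 were higher. The count was 1 with the length trend taken out and without Gprin3 IP 1, Gprin3 IP 2 or Colgalt2 IP 1, and 2 without Colgalt2 IP 2.

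Some genes of calcium-binding proteins and a few synaptic genes were higher in the same direction. Of the called calcium-binding genes, Pvalb and Calb2 are also in the interneuron list, and Calb1 is in that of layers 2 to 4. Of 27 calcium-binding protein genes, 5 were higher and 1 was lower, and without Gprin3 IP 1 or without Gprin3 IP 2, 2 were higher and 0 lower. With the length trend taken out 3 were higher, and without Colgalt2 IP 2 11 were. Of 27 calcium-binding protein genes tested in the WT set, 4 were higher and 5 lower, with a median of -0.205. Calb1, calbindin, was at 428 and 347 CPM in the Gprin3 IPs and at 74.9 and 36.6 CPM in the Colgalt2 IPs. Inputs averaged 219 and 222 CPM, between the lines. For Calb1 the log2 fold change was 2.83 ± 0.32 (adjusted p = 0.000526), and in the WT set 1.37 ± 0.18 (adjusted p = 0.0014), a difference of 1.53 between sets (adjusted p = 0.028). Rab3b, a small GTPase of synaptic vesicles, was at 254 and 325 against 70.2 and 52.9 CPM (2.24 ± 0.27, adjusted p = 0.000667). Kcnip1, an accessory subunit gene of A-type potassium channels, was at 42 and 58 against 13.9 and 8.81 CPM (2.15 ± 0.35, adjusted p = 0.00377). All 3 genes were called with each library left out, and all 3 were higher in the WT set, Rab3b by 1.54 (adjusted p = 0.00125) and Kcnip1 by 1.71 (adjusted p = 0.00206). The lower gene was Camk2a, the alpha subunit of the calcium and calmodulin dependent kinase of excitatory synapses. It was at 2250 and 1790 against 4090 and 5000 CPM (-1.17 ± 0.3, adjusted p = 0.0317) and -1.2 in the WT set (adjusted p = 0.00275). Its baseline call was lost without Gprin3 IP 1 (adjusted p = 0.326), without Gprin3 IP 2 (adjusted p = 0.453) and with the length trend taken out (adjusted p = 0.0881).

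**Figure D4:**
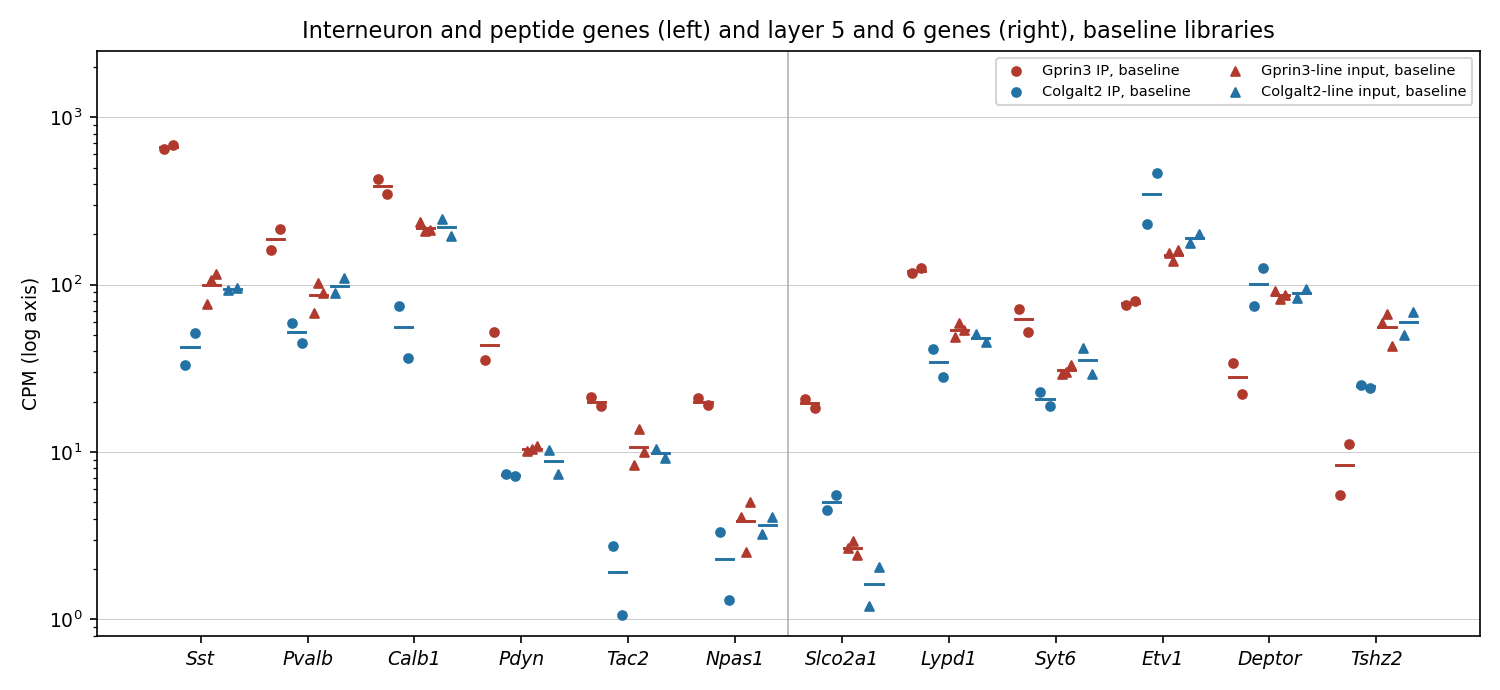
CPM of 12 genes in each baseline library (log axes), with IPs as circles and inputs as triangles, for the Gprin3 and the Colgalt2 line. Sst sits at 643 and 680 CPM in the Gprin3 IPs and at 33.2 and 51.3 CPM in the Colgalt2 IPs, and Etv1 is ordered the other way.

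The called endothelial markers were lower in the Gprin3 IPs, and the defining ones were near 0 there. Of 29 tested, 0 were higher and 14 were lower, with a median of -2.81, and 12 were lower with the length trend taken out. Their summed level was 364 and 411 CPM in the Gprin3 IPs and 553 and 544 CPM in the Colgalt2 IPs, against inputs of 261 to 312 and 267 to 283 CPM. Bsg, a chaperone gene of lactate transporters that other cell types express too, made up 246 and 285 CPM of the sums in the Gprin3 IPs, and it was picked out after its values were seen. The lower count was 8, 10 and 8 without Gprin3 IP 1, Gprin3 IP 2 and Colgalt2 IP 1. Of 30 in the WT set, 17 were lower and 0 higher (median -2.45).

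Flt1, a receptor gene for vascular endothelial growth factor, was at 0.228 and 0.709 CPM in the Gprin3 IPs (4 and 12 counts) and at 28.6 and 10.5 CPM in the Colgalt2 IPs (311 and 209 counts). The Colgalt2 IPs were above the inputs, which averaged 2.26 and 2.23 CPM, and the Gprin3 IPs below them. Flt1 had a log2 fold change of -5.34 ± 0.71 (adjusted p = 0.00115), and in the WT set -3.42 (adjusted p = 0.0157). Slco1a4, an organic anion transporter gene of the blood-brain barrier, was at 0.856 and 0.354 against 30.6 and 12.6 CPM (-5.09 ± 0.65, adjusted p = 0.00101). Ly6c1, an endothelial surface protein gene in brain, was at 0.685 and 0.473 against 16.9 and 12.7 CPM (-4.64 ± 0.62, adjusted p = 0.00126). Erg, an endothelial transcription factor gene, had 0 and 4 counts in the Gprin3 IPs and 58 and 191 in the Colgalt2 IPs (-5.95 ± 1.11, adjusted p = 0.00811). Erg was, in the WT set, at 0.134 and 0.119 against 26.9, 30.9 and 30.2 CPM (-7.83 ± 0.44, adjusted p = 9.1e-06). These 4 genes were called with each library left out. Cldn5, the main claudin of brain endothelium, had 0 and 2 counts against 114 and 63.

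Among the genes with the largest negative folds, some transcription factor genes outside the cell type lists were as low in the Gprin3 IPs. Lef1, a transcription factor gene of Wnt signalling, had 3 and 1 counts in the Gprin3 IPs and 95 and 120 in the Colgalt2 IPs (-5.89 ± 0.98, adjusted p = 0.00413), and was lower in the WT set (-3.92, adjusted p = 0.00226). Klf4, a zinc finger transcription factor gene, had 1 and 1 counts against 63 and 104. Gli2, a transcription factor gene of Hedgehog signalling, had 2 and 4 counts against 86 and 186 (-5.58 ± 0.87, adjusted p = 0.00271). Gli2 did not follow in the WT set, at 3.84 and 1.91 against 4.38, 1.79 and 2.56 CPM (-0.01, adjusted p = 0.992), and the contrasts of the 2 sets differed (adjusted p = 0.00871).

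The called glial and mural markers were lower in the Gprin3 IPs at baseline. Of 18 astrocyte markers 0 were higher and 6 lower (median -1.07), of 16 oligodendrocyte markers 0 and 4 (median -1.37), of 12 microglial markers 0 and 3 (median -2.3), and of 18 mural and fibroblast markers 0 and 5 (median -2.47). Summed astrocyte markers were at 1340 and 1180 CPM in the Gprin3 IPs and at 3450 and 2370 CPM in the Colgalt2 IPs, against 3910 to 4430 and 3700 to 4680 CPM in the inputs. Summed microglial markers were at 19.6 and 20.1 against 77 and 36.7 CPM, with inputs of 70.3 to 117 and 106 to 110 CPM. No member of these 4 lists was at 0 in all 4 IPs. Summed astrocyte markers of the WT set overlapped, at 2330 to 3260 CPM in the Gprin3 IPs and 1760 to 3530 CPM in the Colgalt2 IPs. Of the astrocyte list, 2 were lower with the length trend taken out, 2 without Gprin3 IP 1 and 1 without Gprin3 IP 2, and 8 were lower and 1 higher without Colgalt2 IP 2. Leaving out Gprin3 IP 1 left 1 oligodendrocyte, 0 microglial and 0 mural markers lower. Without Colgalt2 IP 1 the microglial and mural counts were 0 too, and without Gprin3 IP 2 they were 2 and 2. Without Colgalt2 IP 2 there were 7 oligodendrocyte and 8 mural markers lower, and with the length trend taken out 1 microglial and 0 mural markers were lower.

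Slc1a3, a glutamate transporter gene of astrocytes, was at 18.1 and 9.39 CPM in the Gprin3 IPs and at 73 and 74.7 CPM in the Colgalt2 IPs, which were below the inputs (127 and 120 CPM). Its log2 fold change was -2.41 ± 0.37 (adjusted p = 0.00238) and the call held with each library left out. Slc1a2, the other glial glutamate transporter gene, was at 428 and 470 against 1850 and 1290 CPM (-1.79 ± 0.26, adjusted p = 0.00208), lost without Gprin3 IP 1 (adjusted p = 0.132), without Gprin3 IP 2 (adjusted p = 0.0907) and with the length trend taken out (adjusted p = 0.0886). Neither was called in the WT set, where Slc1a3 gave 0.44 (adjusted p = 0.482) and Slc1a2 gave 0.33 (adjusted p = 0.533), and for both the contrasts of the 2 sets differed (adjusted p = 0.0208 and 0.0201). Mobp, a myelin protein gene of oligodendrocytes, was at 7.31 and 8.51 against 82.3 and 38 CPM (-2.9 ± 0.39, adjusted p = 0.00123), and it was called with each library left out. Csf1r, the growth factor receptor gene of microglia, was at 1.37 and 0.827 against 12.2 and 5.44 CPM (-2.96 ± 0.73, adjusted p = 0.028). Its adjusted p rose to 0.0751, 0.142 and 0.189 without Gprin3 IP 1, Gprin3 IP 2 and Colgalt2 IP 1, and to 0.0581 with the length trend taken out. The part of glial and vascular RNA in the other contrasts was not tested.

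Nuclear genes of oxidative phosphorylation, which encode subunits of the respiratory chain and ATP synthase, were higher in the Gprin3 IPs. Of 79 tested, 29 were higher and 0 lower, 77 had a log2 fold change above 0, and the median was 0.881. Their summed level was 20600 and 27800 CPM in the Gprin3 IPs and 13900 and 14500 CPM in the Colgalt2 IPs, against 13700 to 17500 and 15600 to 17700 CPM in the inputs. Of 80 in the WT set, 54 were higher and 1 lower, with a median of 1.04. These genes have short transcripts (median longest transcript 1141 bases), and with the length trend taken out 4 were higher at baseline. The count also fell without Gprin3 IP 1 or Gprin3 IP 2 and rose without Colgalt2 IP 1 or Colgalt2 IP 2, as it did over all genes. The list's medians were 1.08 without Gprin3 IP 1 and 0.653 without Gprin3 IP 2.

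Cox6c, a subunit gene of cytochrome c oxidase, was at 476 and 539 CPM in the Gprin3 IPs and at 206 and 208 CPM in the Colgalt2 IPs, with inputs between them at 282 and 277 CPM. Its log2 fold change was 1.29 ± 0.25 (adjusted p = 0.00866), and in the WT set 1.93 ± 0.2 (adjusted p = 0.000423). Cox4i1, of the same complex, was at 820 and 1170 against 436 and 325 CPM (1.39 ± 0.27, adjusted p = 0.00899). Atp5j, an ATP synthase subunit gene, was at 371 and 496 against 206 and 153 CPM (1.28 ± 0.26, adjusted p = 0.0115). Without Gprin3 IP 1 the adjusted p was 0.13 for Cox6c, 0.0914 for Cox4i1 and 0.102 for Atp5j, and without Gprin3 IP 2 it was 0.142, 0.205 and 0.212. With the length trend taken out, Cox6c was called (adjusted p = 0.0184), and Cox4i1 (adjusted p = 0.202) and Atp5j (adjusted p = 0.195) were not.

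Other lists of short transcripts had the same sign. Of 78 genes of cytoplasmic ribosomal proteins, 10 were higher and 0 lower (median 0.756), and 29 were higher and 1 lower in the WT set. Of 77 genes of mitochondrial ribosomal proteins 2 were higher (median 0.521), and of 46 proteasome subunit genes 3 were higher and 1 lower (median 0.529). Over all genes tested 2.22% were higher and 4.45% lower, so the mitochondrial count is near that share. In both lists 0 were called with the length trend taken out, without Gprin3 IP 1 and without Gprin3 IP 2. Without Colgalt2 IP 1 there were 6 and 5 higher, and without Colgalt2 IP 2 there were 7 and 16. Rpl15, a protein gene of the large ribosomal subunit, was at 265 and 256 CPM in the Gprin3 IPs and at 120 and 56.3 CPM in the Colgalt2 IPs (1.59 ± 0.31, adjusted p = 0.00957), and at 1.86 in the WT set (adjusted p = 0.00051). It was called with the length trend taken out (adjusted p = 0.037) and lost without Gprin3 IP 1 (adjusted p = 0.0984) and Gprin3 IP 2 (adjusted p = 0.0576). Of the cytoplasmic list 1 was called with the length trend taken out and 0 without Gprin3 IP 1 or without Gprin3 IP 2. Leaving out Colgalt2 IP 1 gave 26 higher. With the inputs taken into account Rpl15 gave 0.98 (adjusted p = 0.0777). Ribosomal protein genes have many processed pseudogenes, among which counting can split reads. None of 16 glycolysis genes and none of 35 heat shock and cochaperone genes was called, while without Colgalt2 IP 2 each list had 4 higher and 1 lower. Without Colgalt2 IP 1 the first had 1 higher and 1 lower and the second 1 higher.

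The called chromatin regulators, which encode enzymes and subunits that modify histones and DNA, were lower in the Gprin3 IPs. Of 43 tested, 0 were higher and 20 lower, 42 had a fold below 0, and the median was -1.13. Their transcripts are long (median longest transcript 8714 bases), and 1 was lower with the length trend taken out. Leaving out Gprin3 IP 1, or Gprin3 IP 2, left 2 lower, and without Colgalt2 IP 2, 34 were lower. In the WT set 1 was higher and 5 lower (median -0.12), and for 11 the contrasts of the 2 sets differed, all with a more negative value at baseline. Kmt2a, a histone H3 lysine methyltransferase gene, was at 72.6 and 65.3 CPM in the Gprin3 IPs and at 335 and 271 CPM in the Colgalt2 IPs (-2.13 ± 0.26, adjusted p = 0.000772, or 0.0911 with the length trend taken out). Both lines' inputs lay between them, at 158 and 147 CPM. Tet2, a DNA demethylation enzyme gene, was at 5.48 and 8.39 against 57.3 and 44.3 CPM (-2.87 ± 0.36, adjusted p = 0.000947), and it was called under the length correction (adjusted p = 0.00709) and with each library left out. For both genes the contrasts of the 2 sets differed (adjusted p = 0.0215 and 0.00952).

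The called genes of the presynaptic active zone, where vesicles dock and fuse, were lower as well. Of 18 tested, 0 were higher and 9 lower (median -0.753), and 1 was lower with the length trend taken out, 2 without Gprin3 IP 1 and 1 without Gprin3 IP 2. Bsn, the scaffold Bassoon, was at 169 and 151 CPM in the Gprin3 IPs and at 1320 and 778 CPM in the Colgalt2 IPs. Inputs averaged 526 and 392 CPM, so Bsn was below whole tissue in 1 line and above it in the other (-2.69 ± 0.29, adjusted p = 0.00042). The call held with each library left out and with the length trend taken out (adjusted p = 0.0133). The order was turned in the WT set, at 808 and 892 against 661, 252 and 297 CPM (1.08 ± 0.31, adjusted p = 0.0437), and the contrasts of the 2 sets differed by -3.71 ± 0.46 (adjusted p = 0.00112). Mycbp2, a ubiquitin ligase gene of the presynapse, was at 195 and 177 against 979 and 390 CPM (-1.85 ± 0.34, adjusted p = 0.0072), lost without Gprin3 IP 1 (adjusted p = 0.0962), without Gprin3 IP 2 (adjusted p = 0.113) and with the length trend taken out (adjusted p = 0.324). Of 34 genes of vesicle fusion, 1 was higher, Rab3b, and 1 was lower, Syn3, a synapsin gene, at 44.6 and 34 against 117 and 178 CPM (-1.92 ± 0.32, adjusted p = 0.00379, or 0.0784 without Gprin3 IP 2). The list had 4 higher and 5 lower without Colgalt2 IP 1, 8 and 3 without Colgalt2 IP 2, and 2 and 1 with the length trend taken out. Syn3 was also lower in the WT set (-1.05, adjusted p = 0.00638).

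The called genes of the cytoskeleton and its motors were lower too, and most members were not called. Of 32 genes of spectrins, ankyrins and neurofilaments 0 were higher and 9 lower, and of 40 dynein, dynactin and kinesin genes 0 and 5 (medians -0.377 and -0.239). The lower counts were 4 and 1 without Gprin3 IP 1, and with the length trend taken out 3 and 2. Without Gprin3 IP 2 they were 6 and 2, and without Colgalt2 IP 2 they were 11 and 10, with 5 higher in each list. Dync1h1, which encodes the dynein heavy chain that powers transport toward the cell body, was at 338 and 350 CPM in the Gprin3 IPs and at 4640 and 1330 CPM in the Colgalt2 IPs. Colgalt2 IP 1 was the highest by far, and inputs averaged 221 and 181 CPM, below all 4 IPs. Its log2 fold change was -3.08 ± 0.43 (adjusted p = 0.00172, or 0.0211 with the length trend taken out), and it was not called in the WT set (0.86 ± 0.96, adjusted p = 0.625). Dst and Macf1, genes of giant linkers between actin and microtubules, gave -2.27 ± 0.26 and -2.36 ± 0.27 (adjusted p = 0.000526 for each). Dst was at 145 and 156 against 824 and 634 CPM, and Macf1 was at 70.9 and 102 against 459 and 422 CPM. With the length trend taken out, Dst (adjusted p = 0.192) and Macf1 (adjusted p = 0.162) were not called. Dync1h1, Dst and Macf1 were called with each library left out. Kif5a, a kinesin gene of axonal transport that is linked to ALS, was at 314 and 239 against 1050 and 1130 CPM (-1.98 ± 0.27, adjusted p = 0.0015), with adjusted p values of 0.0521 and 0.0855 without Gprin3 IP 1 and 2.

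The called adhesion and guidance genes were lower with 1 exception, and most members were not called. Of 57 cadherin and synaptic adhesion genes 0 were higher and 10 lower, of 58 axon guidance genes 1 and 8, and of 45 genes of extracellular matrix and secreted modulators 0 and 7. The lower counts were 2, 1 and 4 without Gprin3 IP 1, without Gprin3 IP 2 they were 4, 2 and 1, without Colgalt2 IP 1 they were 13, 4 and 4, and with the length trend taken out 2, 2 and 4. The medians of the 3 lists were -0.213, -0.474 and -1.02, and with the length trend taken out 0.0271, -0.0158 and -0.501. Tenm2 and Tenm4, teneurin genes of synaptic adhesion, gave -2.2 ± 0.26 (adjusted p = 0.000667) and -2.12 ± 0.3 (adjusted p = 0.00181). Tenm2 was at 45.1 and 55.2 CPM in the Gprin3 IPs and at 246 and 215 CPM in the Colgalt2 IPs, and Tenm4 was at 47.7 and 43.4 against 258 and 144 CPM. Both were called with each library left out, and with the length trend taken out Tenm2 was called (adjusted p = 0.0104) and Tenm4 was not (adjusted p = 0.0638). Sema5a, a semaphorin guidance gene, was at 11.8 and 17.1 against 74.3 and 88.5 CPM (-2.51 ± 0.33, adjusted p = 0.00111), again called with each library left out. These 3 genes were not called in the WT set, at -0.32, 0.18 and 0.03, and for each the contrasts of the 2 sets differed (adjusted p = 0.0104, 0.00836 and 0.00325). Scube1, a secreted and membrane-bound glycoprotein gene, was lower in both sets. It was at 30.6 and 17 against 77.7 and 83.5 CPM at baseline (-1.75 ± 0.34, adjusted p = 0.00957, or 0.139 without Gprin3 IP 2) and gave -1.53 ± 0.2 in the WT set (adjusted p = 0.00122).

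The called ion channel genes were mostly lower. Of 43 voltage-gated potassium channel genes 1 was higher, Kcnip1, and 8 were lower, and of 35 calcium channel and pump genes 0 were higher and 9 lower (median -0.691). Without Gprin3 IP 1 and without Gprin3 IP 2 the calcium list had 0 called, and with the length trend taken out it had 1, which was higher. Without Colgalt2 IP 2 it had 14 lower. The potassium list had 0 lower without Gprin3 IP 1, 1 without Gprin3 IP 2 and 4 with the length trend taken out. Cacna1e, the pore subunit gene of R-type calcium channels, was at 145 and 168 CPM in the Gprin3 IPs and at 486 and 425 CPM in the Colgalt2 IPs (-1.54 ± 0.25, adjusted p = 0.00343). The call was lost without Gprin3 IP 1 (adjusted p = 0.14), without Gprin3 IP 2 (adjusted p = 0.0857) and, at an adjusted p of 0.481, with the length trend taken out. Kcnab3, an auxiliary subunit gene of potassium channels, was at 27.6 and 34.8 against 82 and 116 CPM (-1.68 ± 0.31, adjusted p = 0.00704), with adjusted p values of 0.121 and 0.054 without Gprin3 IP 1 and 2, and at -1.38 in the WT set (adjusted p = 0.00503). Of 19 sodium, HCN and chloride channel genes, of 28 glutamate receptor genes and of 18 receptor genes for GABA and glycine, 0 were higher and 1 was lower in each list. Over all genes tested 4.45% were lower, so these counts are near that share and set none of the 3 lists apart. Without Gprin3 IP 1 and without Gprin3 IP 2 none of these 3 lists had a call. The counts higher were 2, 1 and 1 without Colgalt2 IP 1 and 1, 1 and 0 with the length trend taken out, and without Colgalt2 IP 2 the counts lower were 3, 3 and 1.

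Nuclear and noncoding RNAs, which are not translated, were lower in the Gprin3 IPs: 1 of 15 was higher and 9 were lower, with a median of -1.99. In the inputs they were far more abundant, with sums of 11400 to 16800 and 9690 to 20400 CPM against 1300 and 943 CPM in the Gprin3 IPs and 3540 and 1660 CPM in the Colgalt2 IPs. Meg3, an imprinted noncoding gene, was at 37.6 and 17.7 CPM in the Gprin3 IPs and at 298 and 183 CPM in the Colgalt2 IPs, with inputs at 667 and 481 CPM (-3.09 ± 0.37, adjusted p = 0.00067). Kcnq1ot1, an imprinted antisense transcript, was at 0.799 and 0.827 against 39.1 and 17.6 CPM (-5.08 ± 0.54, adjusted p = 0.00042), and reads of its antisense partner cannot be told apart without strand. Malat1, an abundant nuclear RNA, was at 757 and 391 against 2440 and 882 CPM (-1.49 ± 0.41, adjusted p = 0.0437), a call lost without Gprin3 IP 1 (adjusted p = 0.114), Gprin3 IP 2 (adjusted p = 0.398), Colgalt2 IP 1 (adjusted p = 0.385) or Colgalt2 IP 2 (adjusted p = 0.0777) and with the length trend taken out (adjusted p = 0.179). With the inputs taken into account Malat1 gave -1.3 (adjusted p = 0.189). Leaving out Gprin3 IP 1, or Gprin3 IP 2, left 6 of the list lower, and with the length trend taken out 4 were. In the WT set 2 were higher and 0 lower. Xist, the RNA that silences 1 X chromosome in female cells, was at 1.14 and 0.295 against 16.3 and 21.4 CPM (-4.69 ± 0.66, adjusted p = 0.00181). Unlike the list's sums, both Colgalt2 IPs were above the inputs at Xist, which averaged 7.04 and 4.25 CPM. The WT set had Xist at 4.24 and 0.179 against 352, 164 and 0.214 CPM, and it was not called there (adjusted p = 0.348). Ddx3y, on the Y chromosome, was at 28.5 and 32.1 against 50 and 28.2 CPM and overlapped (adjusted p = 0.583), with a sign that turned without Colgalt2 IP 1 (0.03). With genes of both sex chromosomes left out of the fit, 874 genes were called.

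Among 33 genes linked to ALS, 3 were higher and 5 lower. This was 1 and 0 without Gprin3 IP 1, without Gprin3 IP 2 it was 0 and 1, without Colgalt2 IP 2 it was 6 and 10, and with the length trend taken out 2 and 2. Sod1, the antioxidant enzyme whose mutant human form the second set of crosses carries, was at 470 and 801 CPM in the Gprin3 IPs and at 226 and 257 CPM in the Colgalt2 IPs. The lines did not overlap, and inputs averaged 484 and 438 CPM (1.38 ± 0.28, adjusted p = 0.0127). That call was lost without Gprin3 IP 1 (adjusted p = 0.0652) and without Gprin3 IP 2 (adjusted p = 0.272), and the WT set gave 0.27 (adjusted p = 0.419). Chchd10, a mitochondrial protein gene, was at 474 and 790 against 251 and 184 CPM (1.54 ± 0.28, adjusted p = 0.00718, or 0.18 without Gprin3 IP 2), and at 1.08 in the WT set (adjusted p = 0.0369). Of 28 immediate early genes, which respond to activity within minutes, 0 were higher and 2 lower at baseline, Klf4 and Klf2. Over all genes tested at baseline, 2.22% were higher and 4.45% lower. Of 29 immediate early genes in the WT set, 0 were higher and 17 lower (median -1.42), against 6.9% and 6.1% of all genes there. Leaving out Colgalt2 IP 1 gave 2 higher and 3 lower, leaving out Colgalt2 IP 2 gave 4 lower, and leaving out Gprin3 IP 2 left 1 lower. For 5 of these genes the contrasts of the 2 sets differed, with the higher value at baseline.

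Transcription factor and growth factor genes went in both directions. Of 50 cortical transcription factor genes 1 was higher and 6 lower, but without Gprin3 IP 1 none was called, without Gprin3 IP 2 1 was lower, without Colgalt2 IP 1 11 were lower, without Colgalt2 IP 2 4 were higher, and with the length trend taken out 2 were lower. The higher was Nr2f2, a nuclear receptor gene also known as COUP-TFII, at 20.8 and 22.6 CPM in the Gprin3 IPs and at 5.52 and 2.67 CPM in the Colgalt2 IPs (2.44 ± 0.47, adjusted p = 0.00918), with adjusted p values of 0.0538 and 0.0512 without Gprin3 IP 1 and 2. It was at 15.8 and 16.6 against 28.6, 23.1 and 21.3 CPM in the WT set, and the contrasts of the 2 sets differed (adjusted p = 0.00325). Of 55 growth factor and morphogen genes 4 were higher and 5 lower, and without Gprin3 IP 1 or 2 there was 1 higher, with 2 and 3 lower. Igfbp4, a binding protein gene of insulin-like growth factors, was at 164 and 253 against 67.4 and 52.1 CPM (1.81 ± 0.28, adjusted p = 0.00288, or 0.0584 without Gprin3 IP 2), and at 1.18 in the WT set (adjusted p = 0.00319). Stk32b, a protein kinase gene outside the lists, was at 13 and 10.9 against 0.552 and 1.11 CPM (3.77 ± 0.66, adjusted p = 0.00547) and was called with each library left out.

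The line contrast was then set beside that of the WT set, where 1926 genes of 14813 were called (13%). Of 13499 genes tested in both, 295 were called in both, 250 with the same sign and 45 with opposite signs. Those with the same sign were 27.7% of the baseline calls and 13.2% of the WT calls, and they split into 150 higher and 100 lower in the Gprin3 IPs. Sst, Pdyn, Calb1, Pvalb and Slco2a1 were among the higher, and Colgalt2, Tsen15, Erg, Etv1 and Scube1 among the lower. In a test of the difference itself, over 9 IPs, 439 of 14917 genes differed (2.94%), 135 with a higher (0.905%) and 304 with a lower value at baseline (2.04%).

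Among the genes described here whose contrasts differed between the sets in the test, Irf4 had the largest difference. This interferon regulatory factor gene was at baseline at 1.14 and 0.886 CPM in the Gprin3 IPs and at 6.08 and 12.6 CPM in the Colgalt2 IPs (-3.22 ± 0.71, adjusted p = 0.0176), with adjusted p values of 0.0665, 0.0907 and 0.187 without Gprin3 IP 1, Gprin3 IP 2 and Colgalt2 IP 2. The WT set had it at 37.3 and 31.2 against 3.14, 1.58 and 2.07 CPM (3.92 ± 0.33, adjusted p = 0.000142), and the contrasts differed by -7.1 ± 0.68 (adjusted p = 8.24e-05). The high group was the Gprin3 WT IPs, while inputs at baseline averaged 0.845 and 0.402 CPM. Ctse, the cathepsin E gene, was at 2.51 and 1.42 against 5.43 and 17.9 CPM (-2.6 ± 0.69, adjusted p = 0.0389), a call lost without Gprin3 IP 1 (adjusted p = 0.0923), Gprin3 IP 2 (adjusted p = 0.209) and Colgalt2 IP 2 (adjusted p = 0.492) and with the inputs taken into account (adjusted p = 0.168). Its order was also turned in the WT set, at 42.8 and 26.9 against 2.92, 5.58 and 1.25 CPM (3.38 ± 0.48, adjusted p = 0.0019). Erbb4, a neuregulin receptor gene, was at 30.6 and 36.7 against 157 and 88.2 CPM (-1.85 ± 0.3, adjusted p = 0.00377, or 0.0805 without Gprin3 IP 1 and 0.128 with the length trend taken out). Erbb4 was, in the WT set, at 114 and 168 against 91.9, 36.1 and 26.3 CPM (1.47 ± 0.43, adjusted p = 0.057).

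**Figure D5:**
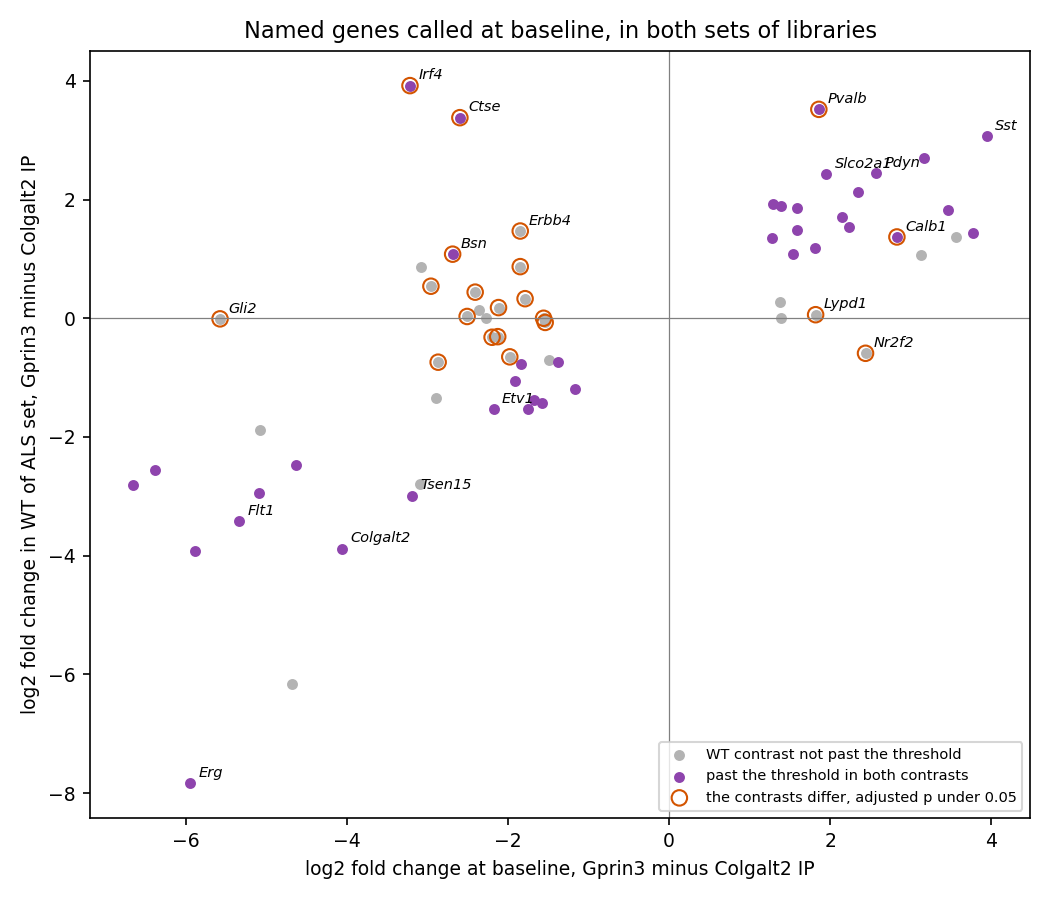
Log2 fold changes (Gprin3 minus Colgalt2) at baseline (horizontal) and in the WT set (vertical) of 66 genes called at baseline; purple points passed the threshold in both sets and orange rings mark genes whose contrasts differed. 38 passed in both, 35 with the same sign, and the contrasts of 21 differed; Sst and Colgalt2 lie far from 0 on both axes, and Irf4 and Bsn have opposite signs.

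The authors' deposited table of the same comparison listed 4000 genes with an adjusted p under the threshold, 1591 higher and 2409 lower in the Gprin3 IPs. Of the 907 genes called here, 906 were among them, and all 906 had the same sign in the authors' deposited table.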

How the data were processed

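RNA from mouse cortex was sequenced after TRAP (IP) or as whole tissue (input). Per the labels' protocols, 15 ng of RNA went through NuGEN Ovation V2 amplification, followed by TruSeq v2 library preparation. Per the submitters' processing notes, Subread, featureCounts and DESeq2 1.26.0 were used with the mm10 build (versions of the others are not given in the sources used here). Deposited for each library were counts of 24100 features, and 9 of them, which have no symbol and hold up to 0.0169% of a baseline library, were left out. The authors' deposited comparison tables hold log2 fold changes and p-values, used here as a reference. Another 36 columns in them, with values of single libraries, were not used.

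Groups follow the titles in the labels, checked against line, genotype and kind of RNA. The count test was that of edgeR 4.0.16, run in R 4.3.3 with limma 3.58.1: genes were filtered with filterByExpr, scaled by TMM and tested by a quasi-likelihood F test (robust fit), with p values adjusted by Benjamini-Hochberg across the genes tested and a threshold of 0.05. The baseline and the WT contrast were each fitted on their own IPs, and their difference as an interaction over 9 IPs. CPM use the library total without a normalization factor. The SE is the fold change divided by the square root of F. Gene positions come from RefSeq (GRCm38.p6), and the longest transcript of each of 21166 genes from GENCODE for GRCm38. The length trend was a lowess curve (span 0.3) of fold change on log length, entered as an offset. In the input-corrected difference, the IP-to-input ratios of both lines were compared in 1 fit. The scripts were tested on simulated data.

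The IPs and the 45 gene lists were chosen with earlier results of these data known, and lists are described by counts and medians. Genes were named by rule: up to 15 per direction with the largest fold among those called, no overlap between groups and a mean of 5 CPM or more in the higher one; up to 3 per direction and list with the smallest p; a fixed set of driver, tag and marker genes; up to 10 per direction called with 1 sign in both sets; and up to 8 per direction with the largest difference between sets. The text prints some of these, and neighbours of the drivers are named by position. Alternatives were DESeq2 size factors and the Wald test (DESeq2 1.42.0), no filter, a mean of at least 5 CPM, thinning to the smallest library, the replicate number as a block, each library left out, the length and input corrections and a joint fit of 9 baseline libraries. Others were chosen after seeing the data: the length correction with the block, and leaving out sex chromosome genes. Some genes near 0 are given with their counts, since counting error limits them most. Among those given in CPM, counts in the Gprin3 IPs were 15 and 6 for Slco1a4, 12 and 8 for Ly6c1, and 20 and 5 for Xist. Stk32b had 6 and 22 counts in the Colgalt2 IPs.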

Additional observations from a re-analysis of the deposited data

Results flagged for a closer look

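For 22 of the genes described above, the line contrast differed between the baseline and the WT set in the interaction test, with the baseline value minus the WT value given here on the log2 scale. Line and dissected tissue cannot be told apart in the WT set, and the part of either in these differences was not tested. In 12 of the 22 the fold changes of the sets had opposite signs at 2 decimals.

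Transcription factor and chromatin genes with a more negative baseline contrast were Irf4 (-7.1), Gli2 (-5.54), Tet2 (-2.07), Kmt2a (-1.76) and Cux1 (-1.5), and Nr2f2 was the other way (3.11). Synaptic, adhesion and guidance genes were Bsn (-3.71), Mycbp2 (-2.65), Tenm4 (-2.24), Tenm2 (-1.82) and Sema5a (-2.48). The kinesin gene Kif5a differed by -1.28 (adjusted p = 0.0426) and the calcium channel gene Cacna1e by -1.41. Glial genes were Slc1a2 (-2.06), Slc1a3 (-2.81) and Csf1r (-3.44). Erbb4 differed by -3.25 and Ctse by -5.96.

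The interneuron markers Pvalb (-1.59) and Gad1 (-1.92) were higher in the WT contrast. Calb1, a calcium buffer gene listed with layers 2 to 4, was higher in the baseline contrast by 1.53 (adjusted p = 0.028). The near-projecting marker Lypd1 was higher in the baseline contrast by 1.82. Sst, at 3.95 and 3.07, was not among these genes.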

How the results depend on the processing

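The baseline count of 907 rose to 1557 with no filter on low counts, to 1549 with DESeq2's Wald test and to 3265 in the joint fit of 9 baseline libraries, which estimates the spread from IPs and inputs together. It fell to 315 with the length trend taken out and was 604 with the length trend taken out and the replicate block. With 1 library left out it ran from 135 to 1711. The share of calls that were higher in the Gprin3 IPs was 33.3%, and it was 44.2% in the joint fit, 46.1% without Colgalt2 IP 2 and 47.8% under length correction with the block. The WT count of 1926 ran from 353 to 2863 with 1 library left out. The count of 439 differences between sets rose to 971 with no filter and 1005 with DESeq2, and ran from 52 to 855. Where 1 library remained in a line, it was assumed to vary like the other line. Same-numbered libraries shared only a number (correlation of deviations 0.0313 at baseline), and with the replicate block 1242 genes were called at baseline and 2510 in the WT set. Signs turned for Tsen15 (0.04, input-corrected), Fezf2 (from -1.45 without Colgalt2 IP 1 to 0.24 without Colgalt2 IP 2), Bcl11b (from 0.59 to -0.04 likewise) and Ddx3y (from 0.03 to -0.63 likewise). Of 66 genes described and called at baseline, 29 were called in each setting that gave a value, 18 lost the call or had no value with the length trend taken out, and 31 lost it when some library was left out. The cause of these changes was not tested. DESeq2 size factors, thinning and the 5 CPM filter left the baseline count within 1.5 times. Depth limited the lowest genes, such as Klf4 with 1 count in each Gprin3 IP.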
